A study of Mus musculus with 6 samples.

Results

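The Slc25 family of mitochondrial carriers was examined in mouse bone marrow cells that the submitters call LT-HSCs, for long-term haematopoietic stem cells. Its members were taken as every row of the deposited gene table whose symbol is Slc25a followed by a number, which gave 47 of 55487 genes, all annotated as protein coding. The libraries were 3 of Mmrn1-high and 3 of Mmrn1-low cells, with poly-A selected RNA read from stranded paired-end libraries. Both groups carry the same genotype, Mmrn1-GFP, named for green fluorescent protein and for Mmrn1, the gene of the platelet and endothelial protein multimerin 1. The sources used here do not give the build of that allele, the surface gate or the age, sex and number of the mice. Nor do they state whether each replicate is a mouse of its own, so the p-values measure only how far these libraries scatter, part or all of which may be technical.

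Mitochondrial carriers are nuclear-encoded proteins that are imported into the mitochondrial inner membrane, where most of them swap a metabolite on the matrix side for another on the cytosolic side. They pass ADP and ATP, phosphate, citrate and other carboxylates, amino acids, iron, glutathione, nucleotides and cofactors, and so couple the enzymes of the matrix to those of the cytosol. LT-HSCs are known to divide rarely and to lean on glycolysis, with oxidative metabolism rising as they leave the stem cell state, which is the setting in which the carriers of these cells are usually discussed.

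The total of counts assigned to genes ran from 11595104 to 30909990 per library. A count of 3, set here as the floor under which a count of 0 is read, corresponded to between 0.0971 and 0.259 CPM, a count set against a fixed library total. Levels below are scaled CPM, in which the library total is also corrected for composition by its TMM factor. Mmrn1 itself averaged 10.0 ± 1.33 scaled CPM in Mmrn1-high and 5.69 ± 0.112 scaled CPM in Mmrn1-low libraries (SD, n = 3 each), so the order of its transcript followed the labels. Of 12 LT-HSC marker genes, none was at 0, 11 were higher in Mmrn1-high cells, and their summed level was 775 to 817 scaled CPM in Mmrn1-high and 452 to 481 in Mmrn1-low libraries. Markers of other marrow cells moved with the groups too. All 10 granulocyte progenitor markers were lower in Mmrn1-high cells, with a summed 3573 to 3642 scaled CPM in Mmrn1-high against 23742 to 24997 in Mmrn1-low libraries, none of them at 0. Of 12 erythroid markers, 1 (Hbb-bt) was higher and 5 were lower, with a summed 483 to 486 scaled CPM in Mmrn1-high and 783 to 812 in Mmrn1-low libraries, and of 9 tested macrophage markers 1 (Cd68) was higher and 8 were lower, with 59.4 to 60.7 scaled CPM in Mmrn1-high and 188 to 192 in Mmrn1-low libraries. All 10 markers of maturing neutrophils were higher in Mmrn1-high cells, at a summed 4861 to 5179.6 scaled CPM against 2987 to 3112 in Mmrn1-low libraries. Of the tested markers of other cells, 4 of 6 for megakaryocytes (Gp6 at 0 in all libraries), 4 of 5 for T and NK cells and 5 of 7 for mast cells and basophils were higher and none lower. For B and plasma cells 5 of 10 were higher and 3 (Igkc, Xbp1 and Mzb1) lower. Their summed level was nonetheless 418 to 460 scaled CPM in Mmrn1-high and 853 to 979 in Mmrn1-low libraries. For endothelium and stroma 3 of 8 were higher and 4 lower. Their summed level was 279 to 296 scaled CPM in Mmrn1-high and 150 to 158 in Mmrn1-low libraries. Of all genes tested, 30.7% were higher and 30.5% lower. The part of these differences in the results on carriers was not tested, and in bulk RNA fewer cells of a type and less RNA per cell cannot be told apart.

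Carrier transcripts differed between the groups in both directions and mostly by small amounts. Slc25a23 and Slc25a27 rose most in Mmrn1-high cells, each by more than the whole spread between libraries, and Slc25a21, Slc25a29 and Slc25a10 fell most. The ADP/ATP carriers split, Slc25a4 being higher and Slc25a5 lower. Of the 47 members, 46 had at least 1 count in some library and 40 passed the filter on low counts. In edgeR's quasi-likelihood test with Benjamini-Hochberg adjustment over all 15419 genes tested, at an adjusted p under 0.05, 21 of the 40 were called, which is 52.5% against 61.2% of all genes. Of these, 9 were higher in Mmrn1-high cells (22.5% against 30.7% of all genes) and 12 were lower (30% against 30.5% of all genes). Mmrn1-high and Mmrn1-low libraries did not overlap for 23 of the 40 members (57.5% against 67.8% of all genes). The median log2 fold change of the tested members, always Mmrn1-high minus Mmrn1-low, was −0.08 against 0.01 for all genes, and the median absolute one was 0.27 against 0.37. Only 4 called members, Slc25a27, Slc25a23 and Slc25a53 on the higher side and Slc25a21 on the lower, reached an absolute log2 fold change of 1, or 10% against 16.2% of all genes. The family as a whole thus held no larger share of called genes, and no larger changes, than the transcriptome around it.

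**Figure D1:**
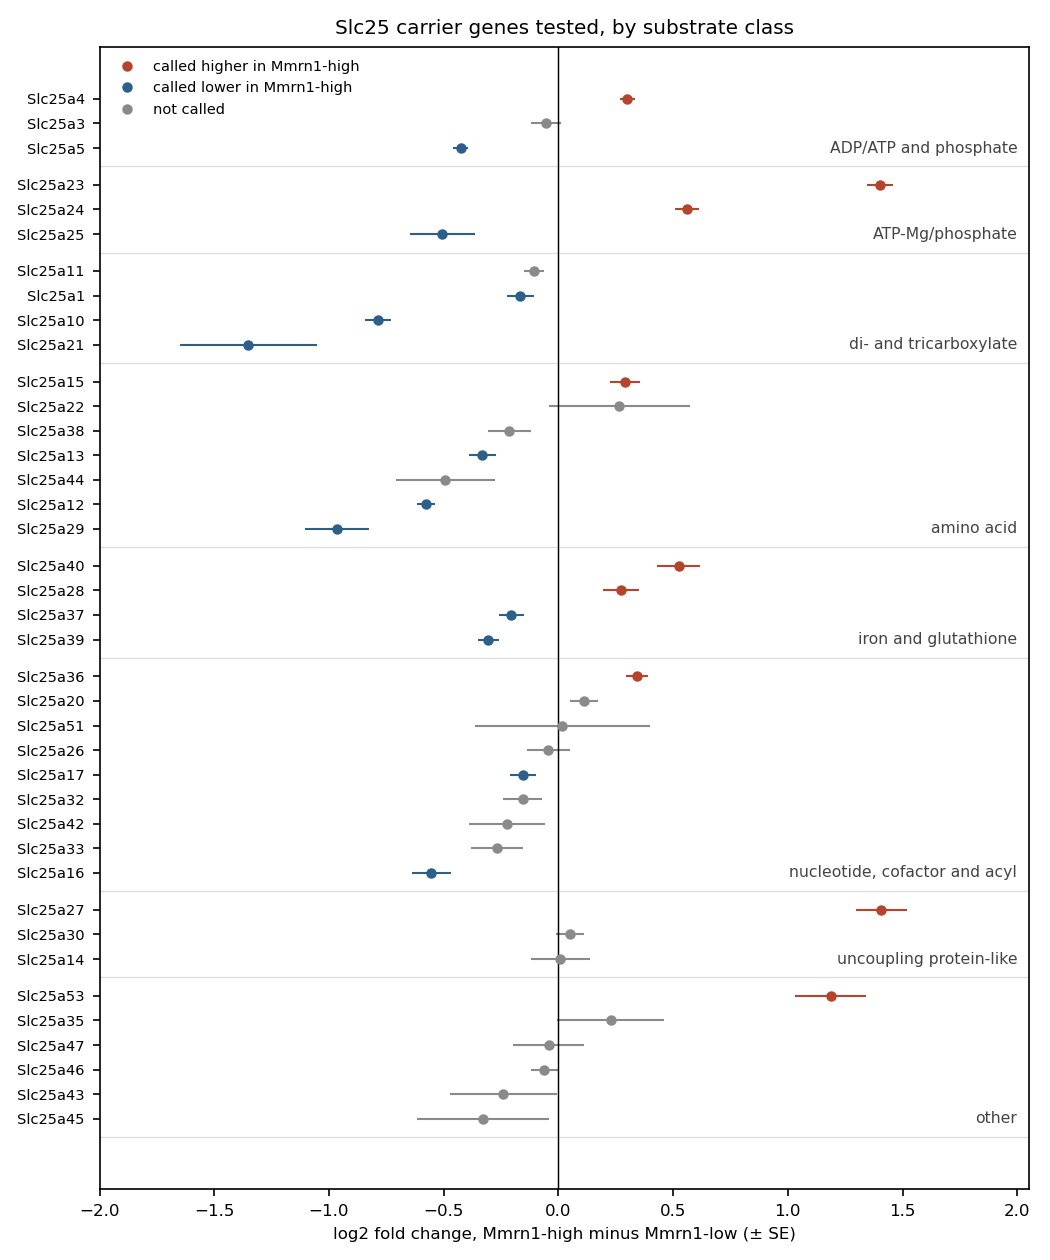
Log2 fold change, Mmrn1-high minus Mmrn1-low, with its standard error for 39 of the 40 tested Slc25 genes, grouped by the class of substrate, from edgeR. Red marks 9 genes called higher, blue 12 called lower and grey 18 not called; Slc25a27 at 1.41 and Slc25a23 at 1.40 lie farthest right and Slc25a21 at −1.35 farthest left, and every class with more than 3 tested genes except the carboxylate carriers holds calls or values on both sides of 0.

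These directions are relative to the TMM scaling, which corrects library size for composition. With library size as the sole scaling, the median over all genes stood at 0.15, which turned the split of called genes from 4737 higher (50.2%) and 4701 lower to 6201 higher (66.0%) and 3193 lower. For the members it gave 11 higher and 8 lower, the calls on Slc25a1, Slc25a17, Slc25a25 and Slc25a37 being lost and those on Slc25a20 and Slc25a30, both higher, gained. No called member changed sign under that scaling. Shares among paralogues within a library, given below, do not depend on any scaling of libraries.

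Levels per transcript length were compared as scaled FPKM, which is the authors' FPKM divided by the TMM factor. Slc25a5 stood first, with 216 ± 6.97 in Mmrn1-high and 291 ± 6.07 in Mmrn1-low libraries (SD, n = 3 each), above 98.6% of all genes tested. Slc25a3, with 66.2 ± 1.01 in Mmrn1-high and 68.7 ± 6.30 in Mmrn1-low, and Slc25a4, with 63.4 ± 1.48 in Mmrn1-high and 51.5 ± 0.567 in Mmrn1-low, came next. By the authors' lengths, Slc25a3 and Slc25a4 thus lay close together in Mmrn1-high cells and well apart in Mmrn1-low cells. Before division by length they were far apart in both groups, at 557 and 172 scaled CPM in Mmrn1-high and 578 and 140 in Mmrn1-low libraries. The closeness therefore depends on the lengths used. Slc25a11 and Slc25a1 followed, at 24.5 ± 0.865 and 18.4 ± 0.964 in Mmrn1-high and 26.4 ± 1.01 and 20.6 ± 1.28 in Mmrn1-low. In all, 11 members averaged at least 10 scaled FPKM over the 6 libraries, 22 lay between 1 and 10, and 7 of the tested members lay below 1. The median of the tested members was 4.997 scaled FPKM against 4.61 for all genes tested.

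**Figure D2:**
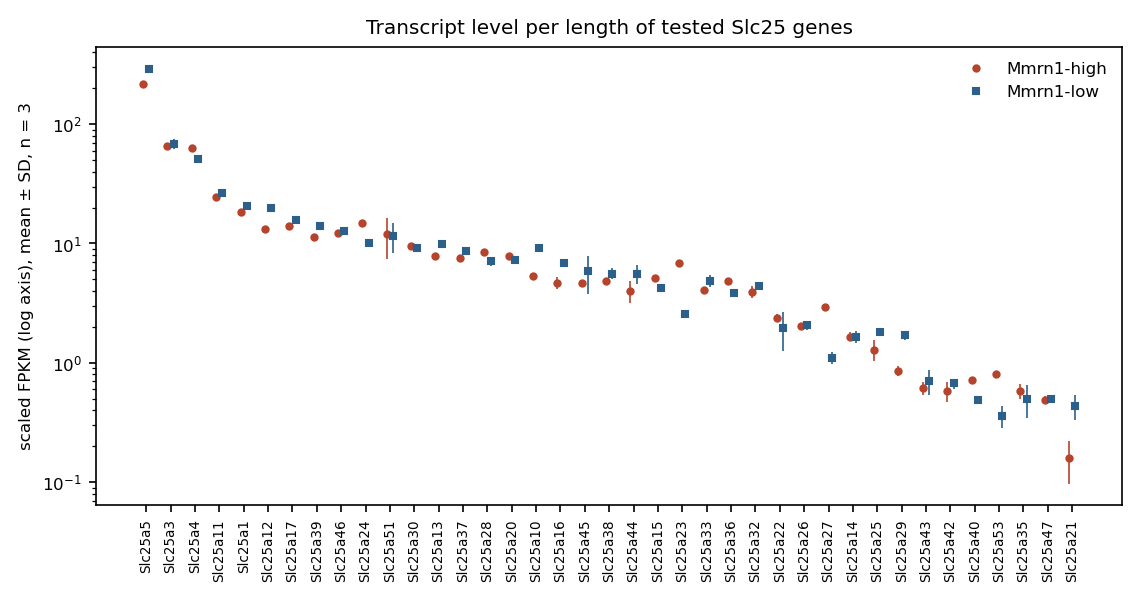
Scaled FPKM on a log axis, mean ± SD of 3 libraries, for 39 of the 40 tested Slc25 genes in order of their mean over all libraries, with Mmrn1-high as red circles and Mmrn1-low as blue squares. Slc25a5 lies at 216 in Mmrn1-high and 291 in Mmrn1-low at one end, and Slc25a21 at 0.159 in Mmrn1-high and 0.435 in Mmrn1-low at the other.

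The summed FPKM of all members made up 0.164%, 0.161% and 0.167% of the library total in Mmrn1-high replicates 1 to 3 and 0.174%, 0.169% and 0.174% in Mmrn1-low replicates 1 to 3. The Mmrn1-high libraries were all below the Mmrn1-low ones, with a p of 0.1 in an exact two-sided permutation test, the smallest that 3 against 3 libraries allow. The difference of the group means, −0.00864% of the library total, came to −0.0156% with GENCODE exon lengths in place of the authors' lengths. On FPKM not corrected for composition, this order rested on Slc25a5, which held 37.7% ± 0.823 of the summed family level in Mmrn1-high and 44.5% ± 1.23 in Mmrn1-low libraries. Without Slc25a5 the order turned, to 0.104%, 0.0998% and 0.103% in Mmrn1-high and 0.0988%, 0.0915% and 0.0969% in Mmrn1-low libraries (exact permutation p = 0.1). These shares hold no composition factor. Dividing FPKM by the TMM factors, 1.0501 to 1.0573 in Mmrn1-high and 0.94725 to 0.95226 in Mmrn1-low libraries, lowers the Mmrn1-high values and raises the Mmrn1-low ones. After that division the order without Slc25a5 did not stay turned. The groups then overlapped, and the Mmrn1-high mean lay under the Mmrn1-low mean. No test was made on the divided values.

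The ADP/ATP carriers trade matrix ATP for cytosolic ADP. Slc25a4 is known as the form of heart and muscle, Slc25a5 as that of dividing cells and Slc25a31 as that of male germ cells. Slc25a5 (GRCm38 chrX:36795651-36798807, + strand) had 631, 643 and 672 scaled CPM in Mmrn1-high replicates 1 to 3, against 851, 885 and 879.7 in Mmrn1-low replicates 1 to 3. The groups were far apart, the highest Mmrn1-high library staying well under the lowest Mmrn1-low one, and Slc25a5 was lower with Mmrn1-high, at a log2 fold change of −0.43 ± 0.03 SE (edgeR adjusted p = 9.52e-06). Slc25a4 (GRCm38 chr8:46206797-46211284, − strand) had 171, 177 and 169 scaled CPM in Mmrn1-high, against 139, 139 and 142 in Mmrn1-low libraries. It moved the other way with no overlap and was higher in Mmrn1-high cells (0.30 ± 0.03 SE, edgeR adjusted p = 7.23e-05). Slc25a31 was all but silent, with 0, 1 and 0 counts in the Mmrn1-high and 2, 0 and 0 in the Mmrn1-low libraries, and was not tested. Within each library, Slc25a4 made up 22.99%, 23.3% and 21.8% of the summed FPKM of the 3 ADP/ATP carriers in Mmrn1-high cells and 15.2%, 14.8% and 15.1% in Mmrn1-low cells, so that Slc25a5 remained the main form in both. This share differed by 7.63 percentage points, many times its spread, at the smallest exact permutation p of 0.1 (0.117 adjusted over 14 shares). A pseudogene copy, Slc25a5-ps, had 14, 37 and 19 counts in Mmrn1-high and 19, 13 and 1 in Mmrn1-low libraries, few beside its parent gene. Whether reads of these similar genes were split correctly between them was not tested.

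The stretches before the start sites of Slc25a5 and Slc25a4 are shown because the genes moved in opposite directions. They come from RefSeq's GRCm38.p6 annotation, 5′ to 3′ on the gene's own strand, and capitals mark a searched motif. The 250 bases before the Slc25a5 start (chrX:36795347-36795596, + strand) hold no match to any of the 4 motifs searched. In Slc25a4, 30-base windows hold an ETS motif (chr8:46211174-46211203, − strand) and, farther downstream, 2 CCAAT boxes (chr8:46211157-46211186 and chr8:46211101-46211130, − strand).
Slc25a5 upstream: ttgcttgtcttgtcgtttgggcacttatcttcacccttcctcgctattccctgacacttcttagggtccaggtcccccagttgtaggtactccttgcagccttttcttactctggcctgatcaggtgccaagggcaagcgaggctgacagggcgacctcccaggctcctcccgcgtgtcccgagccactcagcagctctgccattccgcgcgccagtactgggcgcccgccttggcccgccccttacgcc
Slc25a4 ETS window: acccctagctcCCGGAAGcgtcttcgcccc
Slc25a4 first CCAAT window: gcgtcttcgcccCCAATgccctctgcaaag
Slc25a4 second CCAAT window: ggaccagcccagCCAATgcgcgctgcgcgc

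Slc25a3 imports the phosphate that ATP synthase joins to ADP, and also carries copper. It had 565, 548 and 558 scaled CPM in Mmrn1-high, against 620.2, 518 and 595 in Mmrn1-low libraries, where replicate 2 fell below all Mmrn1-high libraries and the other two lay above them. The groups overlapped, and Slc25a3 was not called (−0.05 ± 0.06 SE, edgeR adjusted p = 0.512). Without Mmrn1-low replicate 2 it was called lower, at −0.13 with an edgeR adjusted p of 0.0137, and by library size alone its sign turned, to 0.10.

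The calcium-regulated ATP-Mg/phosphate carriers load or unload the matrix pool of adenine nucleotides. Of their 3 tested members 2 rose, where 30.7% of all genes were called higher. Slc25a23 (GRCm38 chr17:57043711-57059863, − strand) had 51.9, 50.7 and 48.6 scaled CPM in Mmrn1-high, against 18.4, 19.6 and 19.3 in Mmrn1-low libraries. Every Mmrn1-high library was thus more than 2-fold above every Mmrn1-low one, and the spread within a group was small (1.40 ± 0.06 SE, 2.64-fold, edgeR adjusted p = 3.87e-07, the smallest among the members). Slc25a24 (GRCm38 chr3:109123149-109168457, + strand) had 55.1, 56.0 and 53.1 scaled CPM in Mmrn1-high, against 36.6, 35.9 and 38.9 in Mmrn1-low libraries. It was higher in Mmrn1-high cells without overlap (0.56 ± 0.05 SE, edgeR adjusted p = 4.16e-05). Slc25a25 went the other way, with 22.1, 14.8 and 19.2 scaled CPM in Mmrn1-high, against 27.6, 24.6 and 26.7 in Mmrn1-low libraries. It was called lower (−0.51 ± 0.14 SE, edgeR adjusted p = 0.0163), but its Mmrn1-high libraries were uneven, the call was lost when Mmrn1-low replicate 1 (adjusted p = 0.0676) or 3 (0.0609) was left out, and its exons overlap the opposite-strand gene Naif1 over 4.82% of their length. Slc25a41, a calcium-independent relative, had 0, 3 and 1 counts in the Mmrn1-high libraries and 0 in each of the Mmrn1-low ones.

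Within the 4 ATP-Mg/phosphate carriers the makeup shifted. Slc25a23 made up 29.96%, 29.8% and 29.5% of their summed FPKM in Mmrn1-high libraries and 17.5%, 18.9% and 17.5% in Mmrn1-low libraries. Slc25a24, the most abundant of them throughout, had 63.5%, 65.6% and 64.4% in Mmrn1-high and 69.2%, 69.1% and 70.2% in Mmrn1-low libraries, so that its share was smaller in Mmrn1-high cells although its level was higher. Slc25a25 had 6.51%, 4.43% and 5.92% in Mmrn1-high and 13.3%, 12.1% and 12.3% in Mmrn1-low libraries. Each of these 3 shares separated the groups without overlap (exact permutation p = 0.1, the smallest possible). Slc25a23 and Slc25a24 rose together, and their upstream stretches are shown for that reason, as 250 bases before the start of Slc25a23 (chr17:57059864-57060113, − strand) with its CCAAT box in capitals, and 250 bases before that of Slc25a24 (chr3:109122899-109123148, + strand), which hold no match to the motifs searched.
Slc25a23 upstream: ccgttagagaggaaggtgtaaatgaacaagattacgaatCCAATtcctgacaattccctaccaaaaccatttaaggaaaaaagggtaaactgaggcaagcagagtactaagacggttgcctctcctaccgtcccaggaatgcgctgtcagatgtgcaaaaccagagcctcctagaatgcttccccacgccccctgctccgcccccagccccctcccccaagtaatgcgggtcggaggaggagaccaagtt
Slc25a24 upstream: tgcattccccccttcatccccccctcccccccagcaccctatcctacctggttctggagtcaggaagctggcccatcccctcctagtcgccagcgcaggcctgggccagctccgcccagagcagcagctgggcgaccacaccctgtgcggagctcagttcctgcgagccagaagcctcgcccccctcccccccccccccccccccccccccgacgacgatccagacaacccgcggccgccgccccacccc

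**Figure D3:**
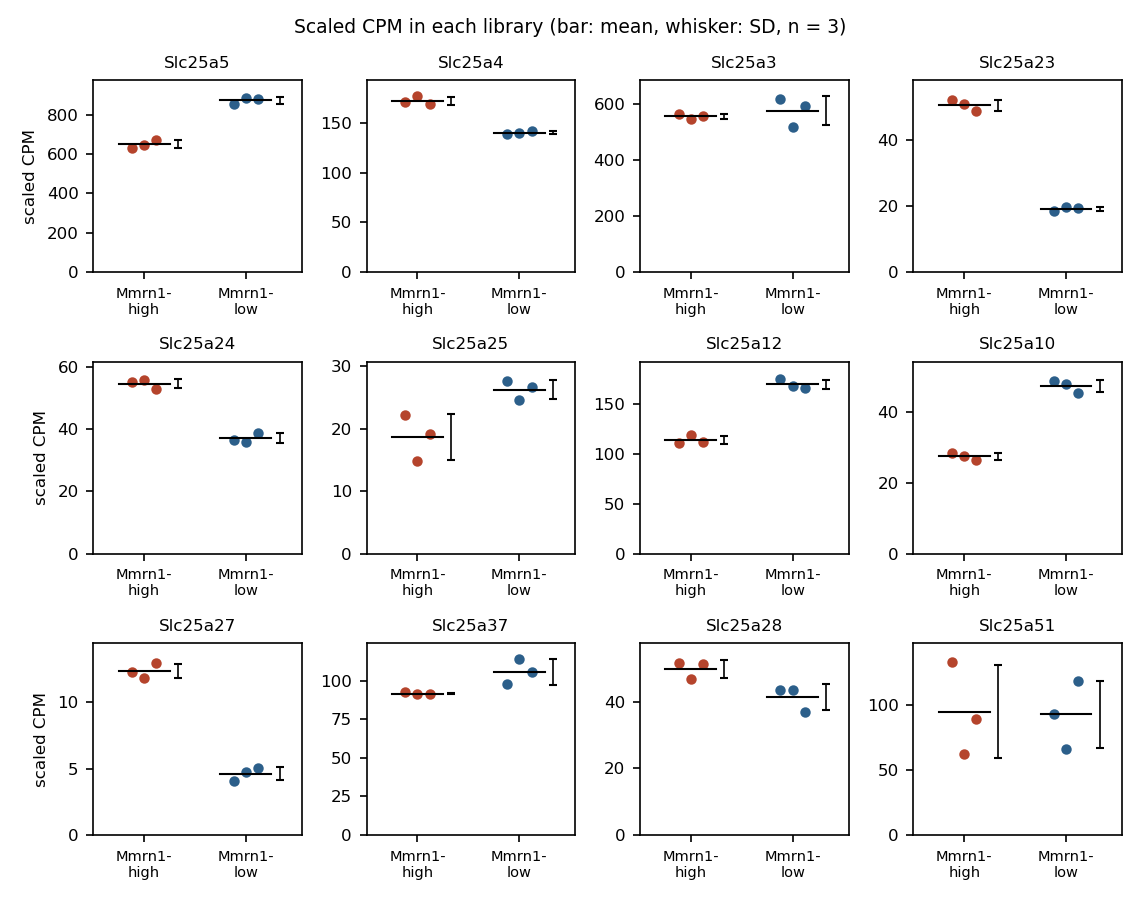
Scaled CPM of 12 Slc25 genes in each library, from 0, with Mmrn1-high in red at left and Mmrn1-low in blue at right of each panel; the bar is the mean and the whisker the SD of 3 libraries. Slc25a23 sits at 48.6 to 51.9 in Mmrn1-high and 18.4 to 19.6 in Mmrn1-low with hardly any spread, whereas Slc25a51 scatters from 61.7 to 133 in Mmrn1-high and 66.3 to 118 in Mmrn1-low.

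The carriers of di- and tricarboxylates link the citric acid cycle to lipid synthesis, redox shuttling and amino acid breakdown. None of the 4 was called higher in Mmrn1-high cells and 3 were called lower, beside 30.7% and 30.5% of all genes. By library size alone the calls on Slc25a10 and Slc25a21 remained. Slc25a1 then came to −0.017 (edgeR adjusted p = 0.82) and Slc25a11 to 0.0432. Slc25a10, which exchanges malate or succinate for phosphate, had 28.3, 27.4 and 26.5 scaled CPM in Mmrn1-high, against 48.6, 47.8 and 45.3 in Mmrn1-low libraries. The groups were far apart (−0.79 ± 0.06 SE, edgeR adjusted p = 8.32e-06). Slc25a21, which takes up oxoadipate from lysine and tryptophan breakdown, was scarce, with 6, 34 and 17 counts in Mmrn1-high and 31, 42 and 64 in Mmrn1-low libraries. These counts equal 0.490, 1.05 and 1.14 scaled CPM in Mmrn1-high, against 1.97, 3.10 and 2.23 in Mmrn1-low libraries, and Slc25a21 was lower in Mmrn1-high cells with the widest error of any call in the family (−1.35 ± 0.30 SE, edgeR adjusted p = 0.00464).

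Slc25a1, which exports citrate to the cytosol for lipid synthesis, had 65.2, 71.2 and 71.8 scaled CPM in Mmrn1-high, against 83.3, 74.0 and 76.3 in Mmrn1-low libraries. The groups were close but did not overlap. It was called lower only narrowly (−0.17 ± 0.06 SE, edgeR adjusted p = 0.0414), and leaving out Mmrn1-high replicate 1 or 2 or Mmrn1-low replicate 1 or 3 ended the call, with adjusted p-values from 0.0291 to 0.166 over the 6 libraries left out in turn. Slc25a11, the oxoglutarate-malate exchanger, had 89.7, 85.5 and 83.8 scaled CPM in Mmrn1-high, against 92.5, 89.4 and 96.5 in Mmrn1-low libraries. The groups overlapped by a single pair of libraries, and it was not called (−0.11 ± 0.04 SE, edgeR adjusted p = 0.0728). Over the summed FPKM of Slc25a1, Slc25a10 and Slc25a11, the share of Slc25a10 was 11.4%, 11.01% and 10.7% in Mmrn1-high and 16.4%, 17.1% and 15.6% in Mmrn1-low libraries. The share of Slc25a11 averaged 50.9% ± 1.72 in Mmrn1-high and 47.0% ± 1.57 in Mmrn1-low, both without overlap (exact permutation p = 0.1 each), while the share of Slc25a1 overlapped between groups (exact permutation p = 0.4).

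Among the amino acid carriers, 1 of 7 tested members was higher and 3 were lower, beside 30.7% and 30.5% of all genes. Slc25a12 and Slc25a13, the aspartate-glutamate exchangers of the malate-aspartate shuttle, were lower together. Slc25a12 had 111, 119 and 112 scaled CPM in Mmrn1-high, against 175, 169 and 166 in Mmrn1-low libraries, well apart (−0.58 ± 0.04 SE, edgeR adjusted p = 6.45e-06). Slc25a13 had 40.2, 42.1 and 45.7 in Mmrn1-high, against 52.8, 54.4 and 53.9 in Mmrn1-low libraries, also without overlap (−0.33 ± 0.06 SE, edgeR adjusted p = 0.00138). Slc25a12 was the more abundant of the pair in every library, with 63.4%, 63.9% and 60.5% of their summed FPKM in Mmrn1-high and 67.5%, 66.0% and 65.9% in Mmrn1-low libraries. Slc25a29, a carrier of basic amino acids, had 2.61, 2.96 and 2.48 scaled CPM in Mmrn1-high, against 5.90, 5.09 and 4.98 in Mmrn1-low libraries. It lay within a narrow range in each group, without overlap (−0.96 ± 0.14 SE, edgeR adjusted p = 4.75e-04).

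Slc25a15, the ornithine-citrulline exchanger, was the amino acid carrier that rose. It had 37.5, 37.2 and 39.3 scaled CPM in Mmrn1-high, against 33.5, 29.4 and 30.3 in Mmrn1-low libraries, without overlap (0.29 ± 0.07 SE, edgeR adjusted p = 0.00552). Its close relative Slc25a2 had 7, 10 and 4 counts in Mmrn1-high and 3, 2 and 2 in Mmrn1-low libraries and did not pass the filter, so Slc25a15 made up 96.7% ± 1.43 of the pair's FPKM in Mmrn1-high and 98.5% ± 0.598 in Mmrn1-low libraries. Slc25a38, which brings in glycine for haem synthesis, averaged 18.4 ± 1.12 scaled CPM in Mmrn1-high and 21.3 ± 2.24 in Mmrn1-low libraries, with overlap (−0.21 ± 0.10 SE, edgeR adjusted p = 0.0846). Slc25a44, a carrier of branched-chain amino acids, had 31.5, 21.1 and 30.7 scaled CPM in Mmrn1-high, against 42.7, 43.5 and 30.6 in Mmrn1-low libraries. The lowest value in each group belonged to its most deeply sequenced library, and Slc25a44 was not called (−0.49 ± 0.21 SE, edgeR adjusted p = 0.0974). DESeq2 called Slc25a44 lower (adjusted p = 0.0185), as did edgeR without the deepest library of each group (−0.46 ± 0.08 SE, adjusted p = 0.00248). Of the glutamate carriers, Slc25a22 is described with the uneven genes, and Slc25a18 had 0 counts in Mmrn1-high and 2 in Mmrn1-low libraries.

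The mitoferrins import iron for haem and iron-sulphur clusters, Slc25a37 mostly in erythroid cells and Slc25a28 more broadly. Slc25a37 had 92.3, 91.4 and 91.2 scaled CPM in Mmrn1-high, against 97.6, 114 and 105 in Mmrn1-low libraries, and was called lower (−0.20 ± 0.06 SE, edgeR adjusted p = 0.0127). Slc25a28 had 51.6, 46.7 and 51.2 in Mmrn1-high, against 43.4, 43.6 and 36.9 in Mmrn1-low libraries, and was called higher (0.27 ± 0.08 SE, edgeR adjusted p = 0.0167). Neither gene overlapped between groups, but both differences were small, and the call on Slc25a37 did not hold by library size alone (edgeR adjusted p = 0.419), nor that on Slc25a28 without Mmrn1-high replicate 3 (0.0522). The balance between them is free of scaling: Slc25a37 made up 46.1%, 48.3% and 46.0% of their summed FPKM in Mmrn1-high and 51.8%, 55.5% and 57.7% in Mmrn1-low libraries, a difference of −8.21 percentage points (exact permutation p = 0.1). Summed erythroid markers, given above, were also lower in Mmrn1-high cells, and their part in this balance was not tested.

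Slc25a39 and Slc25a40 import glutathione, the thiol that protects the matrix. Slc25a39 had 73.7, 68.7 and 73.1 scaled CPM in Mmrn1-high, against 91.4, 89.0 and 85.8 in Mmrn1-low libraries. It was lower in Mmrn1-high cells without overlap (−0.31 ± 0.05 SE, edgeR adjusted p = 5.47e-04). Slc25a40 had 10.3, 10.1 and 10.5 in Mmrn1-high, against 7.23, 6.57 and 7.49 in Mmrn1-low libraries, and was higher without overlap (0.52 ± 0.09 SE, edgeR adjusted p = 0.00150). Slc25a39 nonetheless made up nearly all of the pair per length, with 94.1% ± 0.128 in Mmrn1-high and 96.6% ± 0.277 in Mmrn1-low libraries.

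**Figure D4:**
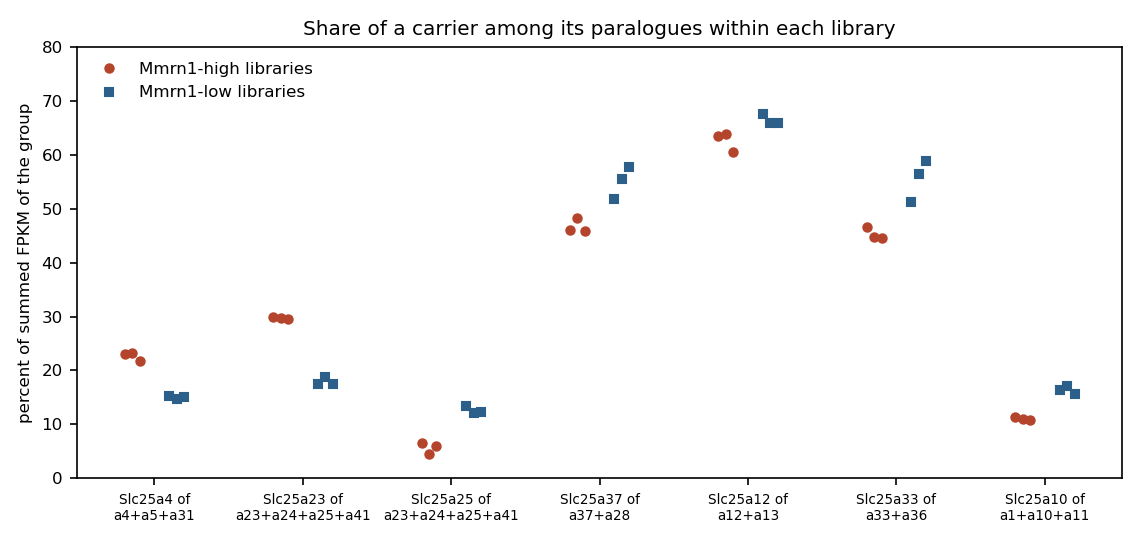
Percent of the summed FPKM of a group of paralogues held by 1 of them, in each library; red circles are Mmrn1-high and blue squares Mmrn1-low. Points do not overlap between groups in any of the 7 shares drawn, with Slc25a4 at 21.8% to 23.3% in Mmrn1-high against 14.8% to 15.2% in Mmrn1-low and Slc25a23 at 29.5% to 29.96% in Mmrn1-high against 17.5% to 18.9% in Mmrn1-low.

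Of the 14 shares computed over 10 groups of paralogues, 12 did not overlap between Mmrn1-high and Mmrn1-low libraries. Beside this, 67.8% of all genes tested did not overlap in scaled CPM, a measure of single genes and not of shares. Shares taken from the same group are tied to each other, so the 14 are not independent. Each of the 12 had the smallest exact permutation p of 0.1, which is 0.117 adjusted over the 14, so that no share could pass 0.05 in this design.

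Carriers of nucleotides, cofactors and acyl groups were mostly not called, with 1 higher and 2 lower among 10 tested, beside 30.7% and 30.5% of all genes. Slc25a36, which carries pyrimidine nucleotides, was the higher one, with 73.4, 76.4 and 74.3 scaled CPM in Mmrn1-high, against 61.8, 57.4 and 57.5 in Mmrn1-low libraries, without overlap (0.34 ± 0.05 SE, edgeR adjusted p = 3.36e-04). Its paralogue Slc25a33 averaged 7.65 ± 0.278 in Mmrn1-high and 9.15 ± 1.06 in Mmrn1-low libraries and was not called (−0.27 ± 0.11 SE, edgeR adjusted p = 0.0695). By the authors' lengths, Slc25a33 held 46.6%, 44.7% and 44.5% of their summed FPKM in Mmrn1-high and 51.3%, 56.5% and 58.9% in Mmrn1-low libraries (exact permutation p = 0.1). Slc25a16, related to a yeast carrier needed for mitochondrial coenzyme A, had 24.8, 24.97 and 30.3 scaled CPM in Mmrn1-high, against 39.5, 39.8 and 38.3 in Mmrn1-low libraries, without overlap (−0.55 ± 0.08 SE, edgeR adjusted p = 6.38e-04). Slc25a17, a carrier of peroxisomes rather than mitochondria, averaged 55.0 ± 2.64 in Mmrn1-high and 61.2 ± 2.93 in Mmrn1-low libraries and was called by a narrow margin (−0.15 ± 0.06 SE, edgeR adjusted p = 0.0459), a call that held only when Mmrn1-low replicate 1 was the library left out (adjusted p from 0.026 to 0.18 over the 6).

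The carnitine-acylcarnitine carrier Slc25a20, which feeds fatty acid oxidation, had 42.3, 40.9 and 41.7 scaled CPM in Mmrn1-high, against 35.9, 40.8 and 38.8 in Mmrn1-low libraries. The groups touched without overlapping, and it was not called (0.11 ± 0.06 SE, edgeR adjusted p = 0.141). The other members of this class that are described lay between −0.22 and 0.02 on the log2 fold change scale, none of them called. They were Slc25a26, the S-adenosylmethionine carrier, Slc25a32, which carries folate, Slc25a42, a coenzyme A carrier, and Slc25a51, the carrier of NAD.

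Of the 3 carriers related to uncoupling proteins, Slc25a27 stood apart. It is known mainly from brain, where it is also called UCP4. It had 12.3, 11.8 and 12.9 scaled CPM in Mmrn1-high, against 4.06, 4.72 and 5.05 in Mmrn1-low libraries. All Mmrn1-high libraries were more than 2-fold above all Mmrn1-low ones (1.41 ± 0.11 SE, 2.65-fold, edgeR adjusted p = 1.39e-05). Slc25a30 averaged 48.4 ± 1.68 in Mmrn1-high and 46.8 ± 2.98 in Mmrn1-low libraries, and Slc25a14 averaged 5.67 ± 0.487 in Mmrn1-high and 5.66 ± 0.669 in Mmrn1-low. Neither was called, with edgeR adjusted p-values of 0.490 and 0.966. The uncoupling protein gene Ucp2, which has the same fold but another name, was higher by little, at 288 ± 8.90 scaled CPM in Mmrn1-high and 268 ± 3.43 in Mmrn1-low libraries (0.10 ± 0.03 SE, edgeR adjusted p = 0.0199). That call was lost under DESeq2, without Mmrn1-high replicate 3, without Mmrn1-low replicate 2 and at an adjusted p under 0.01. Ucp1 had no count in any library, and Ucp3 had 0, 4 and 0 in the Mmrn1-high and 3, 6 and 4 in the Mmrn1-low libraries.

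Carriers of other or unsettled function held 1 call among 6 tested, where 61.2% of all genes were called. Slc25a53, for which no substrate is named here, had 15.03, 13.9 and 15.7 scaled CPM in Mmrn1-high, against 6.85, 7.89 and 5.12 in Mmrn1-low libraries, without overlap (1.19 ± 0.15 SE, 2.28-fold, edgeR adjusted p = 2.66e-04). Slc25a46, an outer membrane protein that shapes mitochondria rather than carrying a metabolite, averaged 70.7 ± 4.05 in Mmrn1-high and 73.7 ± 4.23 in Mmrn1-low libraries and was not called (edgeR adjusted p = 0.411). Slc25a35, Slc25a43, Slc25a45 and Slc25a47 were not called either, and 31.3% of the exon length of Slc25a35 lies over the opposite-strand gene Rangrf. Of the untested members here, Slc25a48 had 1, 6 and 9 counts in Mmrn1-high and 1, 0 and 0 in Mmrn1-low libraries, Slc25a34 had 0 in Mmrn1-high and 1 in Mmrn1-low, and Slc25a54 had none in any library, under the floor of 3 counts set here.

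A few members varied more within a group than between groups, and they were picked out after their values had been seen. Slc25a51 had 133, 61.7 and 89.3 scaled CPM in Mmrn1-high, against 92.8, 66.3 and 118 in Mmrn1-low libraries, the widest scatter of any well-expressed member, at means of 94.6 ± 35.7 in Mmrn1-high and 92.4 ± 26.0 in Mmrn1-low. Slc25a22, the main glutamate carrier, had 39.8, 38.2 and 43.7 in Mmrn1-high, against 40.7, 19.4 and 40.4 in Mmrn1-low libraries. Slc25a45 had 31.2, 31.7 and 30.95 in Mmrn1-high, against 46.1, 23.3 and 47.8 in Mmrn1-low libraries. In both genes Mmrn1-low replicate 2 lay far under the other Mmrn1-low libraries, which were alike. Without that library Slc25a45 was called lower (−0.59 ± 0.06 SE, edgeR adjusted p = 1.38e-04), whereas Slc25a22 came to −0.0026 ± 0.07 SE (edgeR adjusted p = 0.981). Of 27 members averaging at least 20 scaled CPM, 3 had a highest library at least 2 times the lowest within a group (11.1%), against 2.84% of 8322 such genes. Leaving out 1 library brought in a few other calls, Slc25a32 without Mmrn1-high replicate 3, Slc25a33 without Mmrn1-low replicate 1, and Slc25a38 and Slc25a44 without Mmrn1-low replicate 3, all on the lower side.

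Members also share genome positions. In 4 pairs, neighbours lie under 50000 bases apart by their GENCODE loci on GRCm38, and in each pair the level or the call differs. Slc25a41 and Slc25a23 lie 2056 bases apart on the same strand of chromosome 17, and Slc25a54 and Slc25a24 lie 6461 bases apart on the same strand of chromosome 3. Slc25a41 and Slc25a54 were at or near 0, each beside a gene that rose. Slc25a43 and Slc25a5 lie 18448 bases apart on the X chromosome, with 1.36 ± 0.161 scaled CPM in Mmrn1-high and 1.56 ± 0.369 in Mmrn1-low libraries for Slc25a43, which was not called beside the lower Slc25a5. The GENCODE loci of Slc25a29 and Slc25a47 start 162 bases apart on opposite strands of chromosome 12, although the RefSeq start of Slc25a47 lies farther inside its locus. Slc25a29 fell while Slc25a47 averaged 2.40 ± 0.185 in Mmrn1-high and 2.43 ± 0.198 in Mmrn1-low libraries (edgeR adjusted p = 0.836).

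RefSeq windows from 250 bases before to 50 after a start site were found for 36 of the 47 members, 46 windows in all, and 4 motifs were searched on both strands, none of which contains another. The E-box CACGTG stood in 17.1% of the windows of tested members, against 9.91% of those of all genes tested, and the CCAAT box CCAAT in 51.2% against 38.0%. The ETS motif CCGGAAG stood in 14.6% against 17.2%, and the NRF1 core motif TGCGCA in 7.32% against 13.4%. Windows of the same gene can overlap, and the E-box of Slc25a14 was counted more than once. By gene, an E-box stood in 6 of 31 tested members with a window, against 1201 of 10232 such genes among all tested. With 41 windows of tested members these shares are descriptions only. The 6 tested members with an E-box are shown because it was the motif with the largest ratio to other promoters. They hold 2 called higher (Slc25a15 and Slc25a36), 2 called lower (Slc25a1 and Slc25a13) and 2 not called (Slc25a14 and Slc25a33). A link between a match and a direction was not tested. The E-box is in capitals, 5′ to 3′ on the gene's strand, at GRCm38.p6 chr8:22398337-22398366 (− strand) for Slc25a15, chr9:97111211-97111240 (− strand) for Slc25a36, chr16:17928440-17928469 (− strand) for Slc25a1, chr6:6217281-6217310 (− strand) for Slc25a13, chrX:48623382-48623411 (+ strand) for Slc25a14 and chr4:149774258-149774287 (− strand) for Slc25a33.
Slc25a15 E-box: cgccctgccgcaCACGTGccgcggctccgg
Slc25a36 E-box: cccctgggcgatCACGTGaaagaggcgtgc
Slc25a1 E-box: cgctccagacgCACGTGtctctaaactgca
Slc25a13 E-box: cacagtctgagtCACGTGtcctggcccctc
Slc25a14 E-box: tccacctccctcCACGTGacgccccaccca
Slc25a33 E-box: cccggcctccgcCACGTGacggccgcgcgc

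Of the genes that bring carriers to the inner membrane or pass metabolites beside them, most of those called were lower in Mmrn1-high cells. Of all genes tested, 30.5% were called lower and 30.7% higher. Of 16 tested genes for TOM and TIM22 import, the machinery that inserts carriers, 13 were lower and 1 higher (median log2 fold change −0.49). With 1 library left out 10 to 12 were lower, and by library size alone 8 were lower and 2 higher. Tomm40, the import pore, averaged 107 ± 2.38 scaled CPM in Mmrn1-high and 201 ± 6.30 in Mmrn1-low libraries (−0.92 ± 0.04 SE), and Timm29 and Tomm22 fell by 0.66 and 0.54 on the log2 scale, while Tomm20 was higher (0.24 ± 0.05 SE, edgeR adjusted p = 0.00430). All 3 outer membrane porins were lower, Vdac2 most (−0.62 ± 0.03 SE), Vdac1 and Vdac3 by little (−0.15 ± 0.04 and −0.14 ± 0.05 SE), but by library size alone and on FPKM only 1 of the 3 was called. Of 22 other inner membrane transporters, 10 were lower, led by the calcium uniporter Mcu (−1.60 ± 0.04 SE), the sodium-calcium exchanger Slc8b1 (−1.52 ± 0.05 SE) and Abcb10 (−1.19 ± 0.04 SE). The 4 higher ones were Mcub, a uniporter subunit that dampens it, at 0.65 ± 0.19 SE, and the sideroflexins Sfxn3, Sfxn4 and Sfxn5, at 0.86 ± 0.06, 0.86 ± 0.17 and 0.84 ± 0.09 SE. By library size alone 8 of these transporters were lower and 7 higher, where 3193 of all 15419 genes were lower and 6201 higher.

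The pathways that the carriers serve are set beside them here by counts. Of 20 citric acid cycle genes 15 were lower and 0 higher (median −0.39), and of 16 ATP synthase genes 10 were lower and 0 higher (median −0.24). By library size alone the counts were 11 lower and 3 higher for the citric acid cycle, and 6 lower and 1 higher for ATP synthase. Of 7 enzymes of the malate-aspartate and glycerol phosphate shuttles, 5 were lower (Mdh2, Got1, Got2, Gpd1l and Gpd2, median of the list −0.49) and 0 higher. Of these shuttles, only the malate-aspartate one works with Slc25a12, Slc25a13 and Slc25a11. Haem and iron-sulphur genes had 9 lower and 3 higher (Alad, Fdxr and Hscb) of 21, with a median of −0.13. Alas1, an enzyme of the first step of haem synthesis, fell by 2.44 on the log2 scale. Alas2, in the same list and also an erythroid marker here, was not called (−0.28 ± 0.17 SE, edgeR adjusted p = 0.183). Carnitine and fatty acid oxidation genes had 8 lower and 4 higher (Cpt1a, Acadm, Eci2 and Decr1) of 20, with a median of −0.07. That balance turned round with the scaling, to 3 lower and 7 higher by library size alone and 2 lower and 7 higher on FPKM with pseudocount 1. One-carbon genes had 4 lower (Shmt2, Mthfd2, Mthfd1l and Sfxn1) and 1 higher (Mthfd2l) of 9, with a median of −0.06. Arginine, ornithine and glutamate genes had 5 lower, among them Oat, Asl, Aldh18a1 and Aldh4a1, and 2 higher (Arg2 and Glul) of 12, with a median of −0.29. Of 15 regulators of mitochondrial biogenesis, 5 were higher (Ppargc1a, Ppargc1b, Gabpb1, Tfam and Twnk) and 4 lower (Nrf1, Gabpa, Polrmt and Polg), with a median of 0.03. By library size alone 8 of these were higher and 1 lower, and DESeq2 called 3 higher and 4 lower. Of the 13 protein genes of mitochondrial DNA, 7 were higher and 0 lower, by little (median 0.07). That count was 4 with the replicate block, under DESeq2 and at an adjusted p under 0.01, and 11 by library size alone and on FPKM. The corresponding shares for all genes were 30.7% higher and 30.5% lower in the edgeR test with TMM scaling (6201 genes higher and 3193 lower by library size alone), and no test was made of a difference between any list and the carriers.

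**Figure D5:**
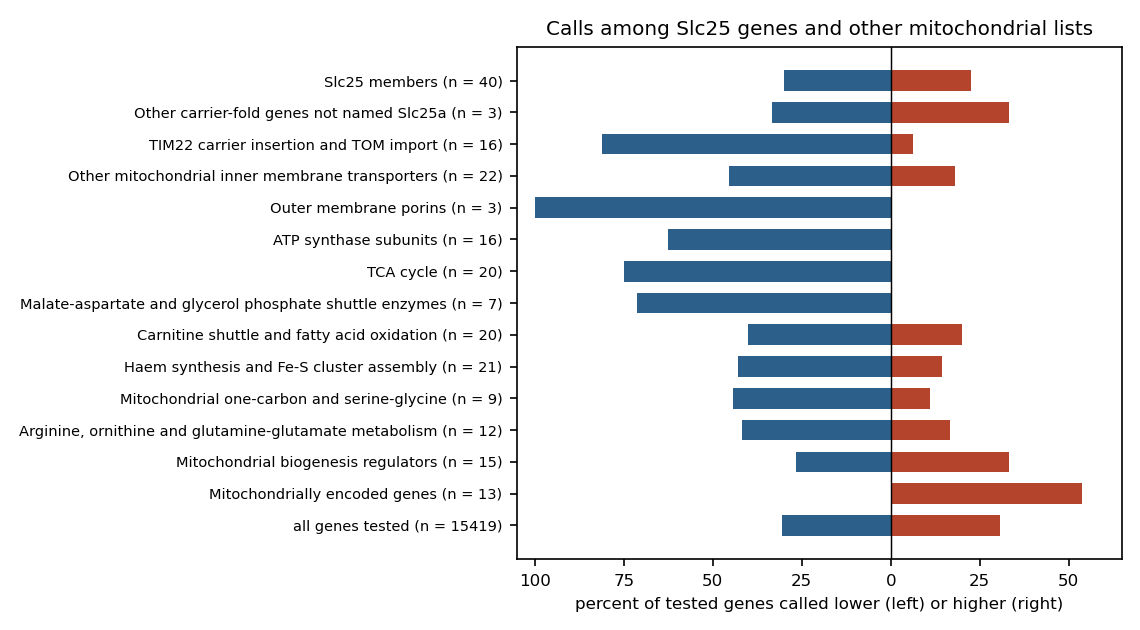
Percent of tested genes called lower (blue, to the left) and higher (red, to the right) in Mmrn1-high against Mmrn1-low cells, for the Slc25 members, related mitochondrial lists and all genes tested, with the number of tested genes in brackets. The 40 Slc25 members, at 30% lower and 22.5% higher, lie close to all genes, at 30.5% and 30.7%, while the import, porin, citric acid cycle and shuttle lists lie to the left. The bars use TMM scaling; by library size alone import had 8 lower and 2 higher, the porins 1 lower, the citric acid cycle 11 lower and 3 higher, and the shuttles 4 lower.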

How the data were processed

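Raw read counts and FPKM for each Ensembl gene in 3 Mmrn1-high and 3 Mmrn1-low libraries were taken from the deposited table, per the file headers. CASAVA 1.8, HISAT2, StringTie, edgeR and GRCm38 stand in the submitters' processing notes, without their roles. The sources used here do not give the strand setting of the counting. The authors' FPKM was the deposited count per length and per library total, within a relative 3.1e-06 for genes of 200 or more counts, and holds no composition factor.

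Counts were tested in edgeR 4.0.16 (R 4.3.3) by the robust quasi-likelihood fit with TMM factors, filterByExpr and the group as sole term, adjusted by Benjamini-Hochberg over 15419 genes, with 0.05 as threshold. The standard error (SE) is the absolute log2 fold change over the root of the F statistic. Scaled CPM is the count over the product of library size and TMM factor. The fit was tested on simulated counts. Paralogue shares were compared by exact two-sided permutation over libraries in SciPy 1.17.1. Loci equalled GENCODE M21 for 46 of the 47 members, and exons of 14 members overlap another gene. Replicate numbers were not used as pairs, since same-numbered libraries did not deviate together (r of 0.0426, −0.0785 and 0.0286 for numbers 1 to 3).

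The members, the comparison lists and the marker lists were chosen with earlier results of these data known. Values in every library are given for up to 10 called members in each direction with the largest changes, averaging at least 1 CPM, for the ADP/ATP, phosphate and mitoferrin carriers and for the 5 members with the highest FPKM. From each list, genes with the smallest p and those in a count of 5 or fewer were named. The values of 1 tested carrier and the name of 1 list gene are not reported here, while both count in the totals.

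Each result was recomputed with DESeq2 1.42.0, with limma 3.58.1 voom and quality weights, with relative log expression factors, by library size alone, with no filter or at least 5 CPM required in 3 libraries, with the replicate block, on FPKM with pseudocounts of 1 and 0.1, at an adjusted p under 0.01 and without each library in turn. Leaving out the deepest library of each group was added after values had been seen.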

Additional observations from a re-analysis of the deposited data

How the results depend on the processing

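Under relative log expression factors and limma voom with quality weights the same 21 members were called. DESeq2 called 20, of which 19 were shared with these, Slc25a1 and Slc25a17 being lost and Slc25a44 gained. The replicate block called 20 (9 higher and 11 lower, Slc25a1 lost), and an adjusted p under 0.01 called 16. With no filter 20 were called and 19 shared, Slc25a1 and Slc25a17 being lost. The gained call there was Slc25a48, at the few counts given above. Single libraries left out gave 8 to 9 higher and 10 to 13 lower, and leaving out the deepest library of each group gave 9 and 9. On FPKM with either pseudocount 7 members were lower and 9 higher, 33 members being tested. The median log2 fold change of the members was 0.0652 by library size alone, −0.0113 with 5 CPM required, and 0.0423, 0.0438 and 0.0423 on FPKM with pseudocounts of 1, 0.1 and 1 without a filter. Library size and FPKM carry no composition factor, and the 5 CPM filter leaves 35 members.

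None of the members that changed sign was called in the edgeR test on all 6 libraries. By library size alone, Slc25a3 came to 0.0956, Slc25a11 to 0.0432, Slc25a26 to 0.1046, Slc25a46 to 0.0872 and Slc25a47 to 0.1056. On FPKM with pseudocount 1, Slc25a3 came to 0.0980, Slc25a11 to 0.0423, Slc25a26 to 0.0768 and Slc25a46 to 0.0811, likewise without a filter, where Slc25a47 came to 0.0422, and with pseudocount 0.1 to 0.0993, 0.0438, 0.1095 and 0.0869 for the first 4. Slc25a26 was 0.0058 with 5 CPM required, Slc25a51 −0.0822 with voom and Slc25a14 −0.0045 with the replicate block. With single libraries left out, Slc25a14 ran from −0.0440 to 0.0949, Slc25a51 from −0.2882 to 0.2729, Slc25a26 from −0.1083 to 0.0282, Slc25a47 from −0.0960 to 0.0538, Slc25a3 from −0.1263 to 0.0080 and Slc25a22 from −0.0026 to 0.4318. Without the deepest libraries, Slc25a14 was −0.0225, Slc25a26 0.0656, Slc25a43 0.0109 and Slc25a47 0.0611. The cause was not tested beyond the scalings named.

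With GENCODE exon lengths in place of the authors' lengths, the difference in share was 5.58 percentage points for Slc25a4, 13.8 for Slc25a23, −3.64 for Slc25a24, −10.3 for Slc25a25 and −1.93 for Slc25a39, and that of the summed family −0.0156% of the library total. On FPKM with pseudocount 1, as by library size alone, 8 import genes were lower, and ATP synthase had 6 lower and 1 higher. The arginine, ornithine and glutamate genes had 3 lower and 3 higher on FPKM with pseudocount 1. Low counts limit the 7 untested members and, among those tested, genes such as Slc25a21 and Slc25a43.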
